A study of Mus musculus with 12 samples.

Results

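The genes described here encode myosin light chains and the kinases that phosphorylate them. They are *Myl1*, *Myl2*, *Myl3*, *Myl4*, *Myl6*, *Myl6b*, *Myl9* and *Mylpf*, which encode light chains, and *Mylk* and *Mylk2*, which encode light chain kinases. They were chosen by name and matched by symbol to Ensembl gene identifiers, 10 of the 55450 genes of the count table, and all 10 passed the filter on low counts that left 19276 genes to test. The counts come from RNA-seq of tibialis anterior (TA) muscle, a hindlimb muscle made mostly of fast fibres, of wild-type (WT) mice of the 129SvPas background, which the sample labels write as 129Pas. The mice were taken before birth at E18.5 and after birth at 2 wks and 7 wks of age, with 4 mice per age, 12 libraries in all, and no treatment or transgene is named for any of them. The series was made to study splicing during muscle development after birth.

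Each myosin motor holds a pair of heavy chains, and each heavy chain binds an essential and a regulatory light chain along its lever arm. The essential chains stiffen the lever arm, and the regulatory chains carry a serine that calcium, calmodulin and light chain kinases act on. In striated muscle this phosphorylation tunes the force of contraction, whereas in smooth muscle and nonmuscle cells it switches the motor on. The light chain genes are known for isoform changes during muscle development, from embryonic to adult and between fast, slow, smooth and nonmuscle forms.

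Among essential chains, *Myl1* encodes the fast skeletal forms, *Myl3* the slow skeletal and ventricular form, *Myl4* the embryonic and atrial form, *Myl6* the smooth muscle and nonmuscle form, and *Myl6b* a slow and nonmuscle form. Among regulatory chains, *Mylpf* encodes the fast skeletal form, *Myl2* the slow skeletal and ventricular form, and *Myl9* a smooth muscle and nonmuscle form. *Mylk* encodes the kinase of smooth muscle and nonmuscle cells and *Mylk2* that of skeletal muscle.

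On the mouse build GRCm38.p6 as RefSeq annotates it, *Myl1* (ENSMUSG00000061816) spans chromosome 1 from 66924295 to 66947932 on the minus strand. *Mylpf* (ENSMUSG00000030672) spans chromosome 7 from 127208848 to 127214288, *Myl4* (ENSMUSG00000061086) chromosome 11 from 104546017 to 104587215, and *Myl3* (ENSMUSG00000059741) chromosome 9 from 110763678 to 110769802, all on the plus strand. *Myl2* (ENSMUSG00000013936) spans chromosome 5 from 122092724 to 122113473 and *Mylk* (ENSMUSG00000022836) chromosome 16 from 34745199 to 35002436, also on the plus strand. On chromosome 2, the plus strand holds *Mylk2* (ENSMUSG00000027470) from 152911281 to 152923065 and *Myl9* (ENSMUSG00000067818) from 156775408 to 156781657. *Myl6* (ENSMUSG00000090841), from 128490859 to 128493886, and *Myl6b* (ENSMUSG00000039824), from 128494157 to 128498685, are neighbours on the minus strand of chromosome 10.

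RefSeq promoter entries were found for 9 of the 10 genes, with 11 windows in all. The 250 bases before the listed start are shown for *Myl1* and *Mylpf*, the fast pair that dominated the light chain counts, for *Myl3*, the slow form whose window held the most of these motifs, and for *Myl9*, the smooth muscle form. Capitals mark E-boxes (CANNTG, read by myogenic bHLH factors), MCAT motifs (CATTCC on either strand, read by TEAD factors) and CArG boxes (read by serum response factor), and no capitals of different motifs overlap. The windows are chr1:66945057-66945306 on the minus strand for *Myl1*, chr7:127211358-127211607 on the plus strand for *Mylpf*, chr9:110763428-110763677 on the plus strand for *Myl3* and chr2:156775214-156775463 on the plus strand for *Myl9*. Those of *Myl1* and *Mylpf* lie inside the gene spans given above, so their listed starts are not the outer ends of these genes. The window of *Myl9* runs past the start of its span, and that of *Myl3* ends just before its span.
Myl1: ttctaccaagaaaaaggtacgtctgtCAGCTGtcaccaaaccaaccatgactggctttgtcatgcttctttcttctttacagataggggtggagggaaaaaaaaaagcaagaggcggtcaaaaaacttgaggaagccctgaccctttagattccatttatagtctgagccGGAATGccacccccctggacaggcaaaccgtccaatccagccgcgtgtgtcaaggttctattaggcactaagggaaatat
Mylpf: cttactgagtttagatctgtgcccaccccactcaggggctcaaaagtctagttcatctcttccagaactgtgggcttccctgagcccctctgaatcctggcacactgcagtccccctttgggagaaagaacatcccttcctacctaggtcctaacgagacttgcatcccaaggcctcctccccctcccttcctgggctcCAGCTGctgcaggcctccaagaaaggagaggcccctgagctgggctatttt
Myl3: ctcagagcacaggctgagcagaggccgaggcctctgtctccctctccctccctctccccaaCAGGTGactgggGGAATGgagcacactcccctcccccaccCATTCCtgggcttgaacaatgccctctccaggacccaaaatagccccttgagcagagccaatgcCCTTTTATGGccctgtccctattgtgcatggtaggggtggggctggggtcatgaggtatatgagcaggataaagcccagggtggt
Myl9: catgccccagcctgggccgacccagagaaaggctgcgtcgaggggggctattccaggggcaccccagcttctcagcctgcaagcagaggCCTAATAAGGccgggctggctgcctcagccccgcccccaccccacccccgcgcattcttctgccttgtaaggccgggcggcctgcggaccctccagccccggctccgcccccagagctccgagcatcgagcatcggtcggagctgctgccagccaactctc
The windows of *Myl1* and *Mylpf* hold the same E-box letters, CAGCTG, and *Myl1* also holds 1 MCAT motif. The *Myl3* window holds 1 E-box, 2 MCAT motifs and 1 CArG box, and the *Myl9* window holds 1 CArG box and no other of these motifs. No MEF2 box was found in the windows of the 9 genes, and 2.92% of all windows hold one. Over all 32851 mouse promoter windows of this length, 66.2% held an E-box, 12.6% an MCAT motif and 1.47% a CArG box. Such a match describes letters and was not tested as a binding site.

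The libraries held 63018968 to 123449246 counts, and the genes described here took 0.977 to 1.38% of them at E18.5, then 2.59 to 3.46% at 2 wks and finally 1.67 to 2.04% at 7 wks. Levels are given as counts per 1e6 counts (CPM) after TMM scaling, which sets libraries to a common level through the bulk of the genes. Scaling to total counts instead moved the median change over the tested genes, on the log2 scale, from -0.09 to -1.02 between E18.5 and 2 wks and from -0.03 to -0.38 between 2 and 7 wks. A change is called at an adjusted p under 0.05 in edgeR's quasi-likelihood test over all 19276 genes. Of 7 skeletal muscle markers, all 7 were expressed in every library, summing to 7978 to 15123 CPM at E18.5, 75618 to 103890 CPM at 2 wks and 85383 to 108318 CPM at 7 wks. All 7 rose to 2 wks and 3 rose further by 7 wks, against 6 and 0 with total counts. In RNA from whole muscle, fewer cells of a type and less RNA per cell cannot be told apart.

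Some libraries stood apart across these genes. At E18.5, replicate 2 was the highest of its age for 9 of the 10 genes, all but *Myl2*. At 2 wks, replicate 3 was the lowest for *Myl2*, *Myl3*, *Myl6b* and *Myl9*, and replicate 1 was the highest for 5 genes. At 7 wks, replicate 3 was the highest for 7 genes and replicate 1 the lowest for 6. The 7 fibroblast markers summed to 4143 CPM in replicate 1 of 7 wks, against 992 to 1725 CPM in the other mice of that age. The p-values weigh a difference between ages against the spread between mice of the same age. In edgeR that spread is estimated from all 12 libraries together.

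Between E18.5 and 2 wks the fast chains *Myl1* and *Mylpf*, the kinase *Mylk2* and, at a smaller size, the slow chain *Myl3* rose, while the embryonic chain *Myl4* fell. Thus 5 of 10 genes were called, 4 higher and 1 lower at 2 wks. Of all genes tested, 65.7% were called in this interval, 31.5% higher and 34.2% lower. From 2 to 7 wks, 3 of 10 were called, with *Mylk2* higher and *Myl2* and *Myl6b* lower, against 27.5% of all genes, 13.5% higher and 13.9% lower. From E18.5 to 7 wks, 7 of 10 were called, with *Myl1*, *Mylpf* and *Mylk2* higher and *Myl4*, *Myl2*, *Myl6b* and *Myl9* lower, against 71.4% of all genes, 34.3% higher and 37.1% lower. The share of called genes was thus close to that of the whole table or below it. The median log2 fold change of the 10 genes was 0.18, -0.43 and -0.23 in the 3 comparisons, beside -0.09, -0.03 and -0.09 over all genes tested.

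The change before 2 wks was also tested against the change after it, as a contrast of its own. It differed for 4 of 10 genes, against 38.4% of all genes. *Myl1*, *Mylpf* and *Mylk2* changed more upward in the first interval, by 2.56, 3.14 and 2.02 on the log2 scale, and *Myl4* more downward, by -2.92 (adjusted p = 8.41e-05, 3.56e-05, 0.00306 and 0.00355, edgeR). After a library-wise trend over GC content had been taken out, the difference for *Mylk2* was 0.88 and did not pass (adjusted p = 0.0800), while that of *Myl9* was -1.19 and did (adjusted p = 0.0295).

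Without replicate 2 of E18.5, 4 genes were called higher and 1 lower from E18.5 to 2 wks, and 1 higher and 5 lower from 2 to 7 wks. Without replicate 3 of 2 wks the counts were 4 and 1, then 1 and 2, and without replicate 1 of 7 wks they were 4 and 1, then 1 and 1. Of the 19602, 19932 and 19929 genes that these fits tested, 12932, 12137 and 12974 were called in the first interval. From 2 to 7 wks they called 5763, 4472 and 4519 of all genes. In that later interval *Mylk2* was the only one of the 10 genes called when replicate 1 or replicate 2 of 2 wks was left out. Of all genes, 3472 and 3705 were then called.

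The direction of several smaller changes depended on the scaling. With total counts, 3 genes were called higher and 6 lower between E18.5 and 2 wks. From 2 to 7 wks total counts called 1 higher and 7 lower, and upper-quartile scaling 1 higher and 6 lower. Of all 19276 genes, total counts called 2550 higher and 11923 lower in the first interval, and 948 higher and 5392 lower in the second. Upper-quartile scaling called 1902 of all genes higher and 3286 lower in the second. From E18.5 to 7 wks each of total counts, upper-quartile scaling and removal of the GC trend called 3 higher and 6 lower. Of all genes, these called, in that order, 2291, 5551 and 6182 higher and 13297, 8351 and 8227 lower. With the GC trend removed, 3 were called higher and 5 lower between E18.5 and 2 wks, against 5170 and 7640 of all genes. *Myl1*, *Mylpf* and *Mylk2* were called higher and *Myl4* lower between E18.5 and 2 wks under each of these scalings and in upper-quartile scaling.

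**Figure D1:**
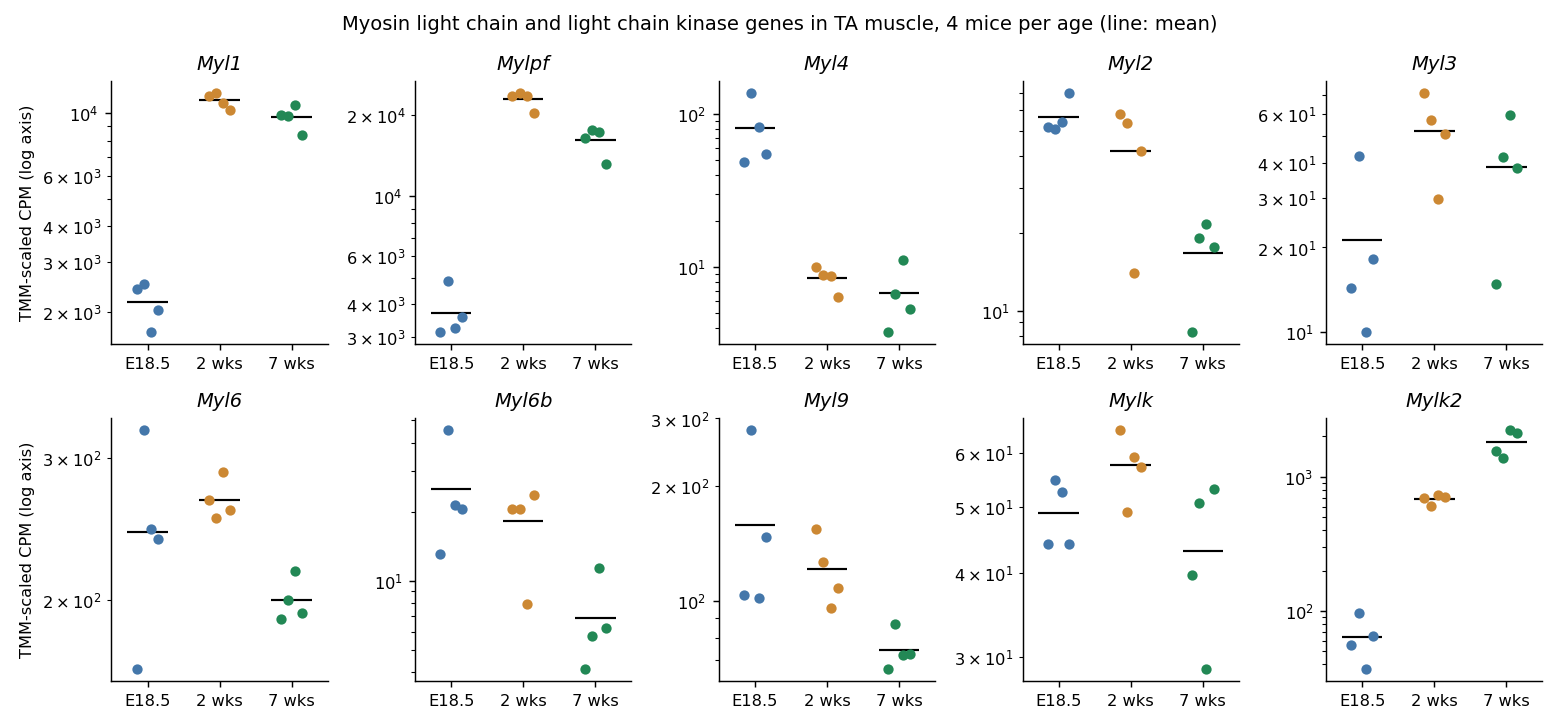
TMM-scaled CPM (log axis) of each gene in the 12 libraries by age, with points for single mice and a line for the mean of 4. Myl1, Mylpf and Mylk2 were higher in every library after birth than in any at E18.5, Myl4 was lower in every one, and E18.5 overlapped with 2 wks for the other 6 genes.

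*Mylpf* was the most abundant gene of the group at each age. Its 4 libraries stood at 3132, 4842, 3257 and 3558 CPM at E18.5, at 23668, 24211, 23578 and 20470 CPM at 2 wks, and at 16467, 17619, 17338 and 13193 CPM at 7 wks. The 3 ages did not overlap, with the highest levels at 2 wks. Its mean rose 6.22-fold to 2 wks (log2 fold change 2.64, standard error (SE) 0.22, adjusted p = 5.32e-07, edgeR). The mean at 7 wks was 0.703 times that at 2 wks, and this difference did not pass (log2 fold change -0.51, SE 0.21, adjusted p = 0.0863). It passed when the 8 libraries compared were fitted alone (log2 fold change -0.55, adjusted p = 0.0292) and under scaling to total counts (-0.86, adjusted p = 0.00575). It also passed with upper-quartile scaling (-0.62, adjusted p = 0.0409), in DESeq2 (-0.51, adjusted p = 0.0114) and without replicate 2 of E18.5 (-0.51, adjusted p = 0.0480). With the GC trend removed it did not (-0.46, adjusted p = 0.0789).

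*Myl1*, the fast essential partner of *Mylpf*, stood at 2409, 2495, 1692 and 2029 CPM at E18.5. It reached 11515, 11770, 10822 and 10216 CPM at 2 wks and 9844, 9778, 10642 and 8375 CPM at 7 wks. The libraries after birth were all above those before it, and those of 2 and 7 wks overlapped. The rise to 2 wks was 5.14-fold (log2 fold change 2.36, SE 0.20, adjusted p = 5.11e-07). The later interval gave a log2 fold change of -0.20 (SE 0.19, adjusted p = 0.462), and with total counts it was -0.55 and passed (adjusted p = 0.0308).

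*Myl1* has a near-identical copy. The pseudogene *Mylf-ps* holds a stretch of 421 bases that is 99.3% identical to the *Myl1* transcript, and it carried 61435 to 159564 counts per library. These came to 17.8 ± 1.25% (SD, n = 4) of the *Myl1* counts at E18.5, then 13.0 ± 1.33% at 2 wks and finally 13.6 ± 1.37% at 7 wks. *Mylf-ps*, like *Myl1*, rose in the first interval (log2 fold change 1.92, SE 0.20, adjusted p = 2.97e-06). Reads that match both genes equally well cannot be told apart, and how many of the counts this concerns was not tested. For *Myl6*, 5 pseudogenes together carried 0.214 to 0.539% of its counts.

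*Myl4*, the embryonic chain, showed the largest fall of the group. Its counts stood at 49.1, 138, 82.8 and 54.8 CPM at E18.5. After birth they were 10.1, 8.89, 8.82 and 6.35 CPM at 2 wks, and 3.75, 6.71, 11.2 and 5.36 CPM at 7 wks. Every library after birth was below every one at E18.5, and the ages after birth overlapped. The mean at 2 wks was 0.105 times that at E18.5 (log2 fold change -3.25, SE 0.37, adjusted p = 6.66e-06), and from 2 to 7 wks the log2 fold change was -0.33 (SE 0.35, adjusted p = 0.505). *Myl4* still held 187 to 863 counts in the libraries after birth, so its level there was low and not zero. Exons of *Cdc27* on the other strand cover 258 bases of *Myl4* exons, and the strand setting of the counting is not given in the sources used here. Exons of other genes on the opposite strand also cover 300 bases of *Mylpf* (*Septin1*), 169 of *Myl9* (*5730471H19Rik*), 95 of *Myl3* (*Pth1r*) and 60 of *Myl2* (*Ccdc63*).

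*Myl2*, the slow regulatory chain, was not called between E18.5 and 2 wks with TMM scaling and was lower in every mouse at 7 wks than in any at E18.5. It stood at 51.8, 50.8, 53.8 and 69.9 CPM at E18.5, at 58.0, 53.3, 14.0 and 41.7 CPM at 2 wks, and at 8.25, 19.1, 21.6 and 17.7 CPM at 7 wks. The ages of 2 and 7 wks overlapped through replicate 3 of 2 wks, which was below 3 of the mice at 7 wks. The first interval gave a log2 fold change of -0.44 (SE 0.36, adjusted p = 0.298). It was called lower there with total counts (-1.33, adjusted p = 0.00521) and with the GC trend removed (-0.88, adjusted p = 0.0470). *Myl2* then fell by 1.32 on the log2 scale from 2 to 7 wks (SE 0.37, adjusted p = 0.0166). That fall no longer passed without replicate 1 of 2 wks (-1.14, adjusted p = 0.0577) or replicate 2 of 2 wks (-1.19, adjusted p = 0.0514). From E18.5 to 7 wks *Myl2* fell by 1.76 (SE 0.37, adjusted p = 0.000727), with no overlap between these ages.

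*Myl3*, the slow essential chain, followed another course. It stood at 14.4, 42.3, 9.97 and 18.2 CPM at E18.5, at 71.1, 57.2, 29.8 and 50.8 CPM at 2 wks, and at 14.9, 42.1, 59.4 and 38.6 CPM at 7 wks. Replicate 2 of E18.5 was above replicate 3 of 2 wks, and otherwise the libraries of 2 wks were the higher. *Myl3* rose 2.46-fold to 2 wks (log2 fold change 1.30, SE 0.45, adjusted p = 0.0206), a call that was lost without replicate 1 of E18.5, replicate 3 of E18.5 or replicate 1 of 2 wks (1.15, 1.06 and 1.15, adjusted p = 0.0612, 0.0566 and 0.0531). It was also lost with total counts (0.40, adjusted p = 0.417) and with the GC trend removed (0.59, adjusted p = 0.199). Over both intervals the value was 0.87 (SE 0.45, adjusted p = 0.0953) and turned to -0.41 (adjusted p = 0.402) with total counts. Without replicate 2 of E18.5 or replicate 1 of 7 wks it was 1.45 and 1.15 and passed (adjusted p = 0.00589 and 0.0239).

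The slow and cardiac programmes were read beside *Myl2* and *Myl3*. Of 7 slow fibre markers, 6 fell between E18.5 and 2 wks and 5 between 2 and 7 wks, with a median log2 fold change of -2.56 and -1.71. Their summed level was 1866 to 2934 CPM at E18.5, 441.8 to 633 CPM at 2 wks and 285 to 522 CPM at 7 wks. Of 7 cardiac markers, 5 could be tested, and their sum, which is mostly the cardiac actin gene *Actc1*, was 2664 to 4417 CPM at E18.5, 2682 to 9417 CPM at 2 wks and 698 to 3620 CPM at 7 wks. Of the 5, 1 rose and 2 fell to 2 wks, and 4 fell by 7 wks, whereas with total counts 3 fell and then all 5. *Nppb*, a natriuretic peptide of the heart, was listed at 0 counts in every library after birth and at 8 to 25 counts at E18.5. None of the other cardiac markers was at 0 in all mice of an age. *Nppa*, which like *Nppb* could not be tested, had 3 to 16 counts in each mouse of 7 wks. In replicates 1 and 3 of 2 wks it had 0. *Myh6* kept 212 to 1069 counts per library after birth, and *Tnni3* and *Tnnt2* were also counted in each of these libraries. *Myl7*, the atrial regulatory chain, had at most 8 counts in any library. The part of other cell types in *Myl2*, *Myl3* and *Myl4* was not tested.

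Of the nonmuscle and smooth muscle chains, *Myl6* stood at 164.5, 325, 245 and 238 CPM at E18.5, at 266, 252, 288 and 259 CPM at 2 wks, and at 189.5, 199.9, 217 and 193 CPM at 7 wks. All libraries of 7 wks were below those of 2 wks, but the log2 fold change of -0.41 did not pass (SE 0.18, adjusted p = 0.0974). It passed when the 8 libraries were fitted alone (-0.45, adjusted p = 0.00863) and with total counts (-0.76, adjusted p = 0.00659). It also passed with upper-quartile scaling (-0.52, adjusted p = 0.0394), with the GC trend removed (-0.32, adjusted p = 0.0466) and without replicate 1 or replicate 2 of E18.5. Between E18.5 and 2 wks the value was 0.13 (SE 0.18, adjusted p = 0.529) and its sign depended on the scaling, at -0.80 with total counts (adjusted p = 0.00115). Removal of the GC trend gave -0.36, which also passed (adjusted p = 0.0137).

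*Myl6b*, the neighbour of *Myl6*, stood at 13.1, 45.6, 21.4 and 20.6 CPM at E18.5 and at 20.5, 20.7, 7.92 and 23.6 CPM at 2 wks. At 7 wks it had fallen to 4.13, 5.76, 11.4 and 6.202 CPM, and only replicate 3 of each age after birth made the ages overlap. To 2 wks its log2 fold change was -0.47 (SE 0.41, adjusted p = 0.320), and it was called lower with total counts (-1.39, adjusted p = 0.00682) and with the GC trend removed (-1.74, adjusted p = 0.00013). The fall from 2 to 7 wks was 1.40 on the log2 scale (SE 0.42, adjusted p = 0.0233), and it passed in 6 of the 12 fits that left out 1 library. It was lost without replicate 1, 2 or 4 of 2 wks and without replicate 1, 2 or 4 of 7 wks, with log2 fold changes of -1.35, -1.33, -1.25, -1.22, -1.32 and -1.35. From E18.5 to 7 wks *Myl6b* fell by 1.87 (SE 0.42, adjusted p = 0.00119), with no overlap between the ages. It shares 1389 exon bases with the antisense gene *A430046D13Rik*, which has no row in the table.

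*Myl9*, the smooth muscle chain, stood at 103.9, 280.4, 101.7 and 147 CPM at E18.5, at 154, 127, 95.8 and 108 CPM at 2 wks, and at 66.4, 86.9, 72.0 and 72.5 CPM at 7 wks. The libraries of 7 wks were below all those of 2 wks and of E18.5. From E18.5 to 7 wks *Myl9* fell by 1.09 on the log2 scale (SE 0.28, adjusted p = 0.00342), and by 0.66 without replicate 2 of E18.5, still past the threshold. The shorter intervals did not pass, with log2 fold changes of -0.39 (SE 0.28, adjusted p = 0.239) and -0.70 (SE 0.28, adjusted p = 0.0792). The first passed with total counts (-1.29, adjusted p = 0.00109) and with the GC trend removed (-1.55, adjusted p = 4.52e-05). The second passed when its 8 libraries were fitted alone (-0.74, adjusted p = 0.00598) and with total counts (-1.07, adjusted p = 0.0132).

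Of 7 smooth muscle markers, 4 rose and 1 fell from E18.5 to 2 wks, and 2 fell in the second interval. With total counts 2 rose and 2 fell, and then 6 fell. Their sum was 279.8 to 558 CPM at E18.5, 492 to 1021 CPM at 2 wks and 310 to 415 CPM at 7 wks. Of 6 endothelial markers, 4 were higher at 2 wks than at E18.5 and none was lower, and 2 were lower at 7 wks than at 2 wks. With total counts 2 were higher and 1, *Tek*, lower at 2 wks, with a median log2 fold change of -0.15 against 0.78, and 4 were lower at 7 wks. Their sum was 354 to 516 CPM before birth and 528 to 1013 CPM after it. Of 7 fibroblast markers, 4 were lower in each interval, or 6 and then 5 with total counts, and their sum was 7853 to 14687 CPM at E18.5, 4601 to 6339 CPM at 2 wks and 992 to 4143 CPM at 7 wks. The part of these cells in *Myl6*, *Myl6b*, *Myl9* and *Mylk* was not tested.

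**Figure D2:**
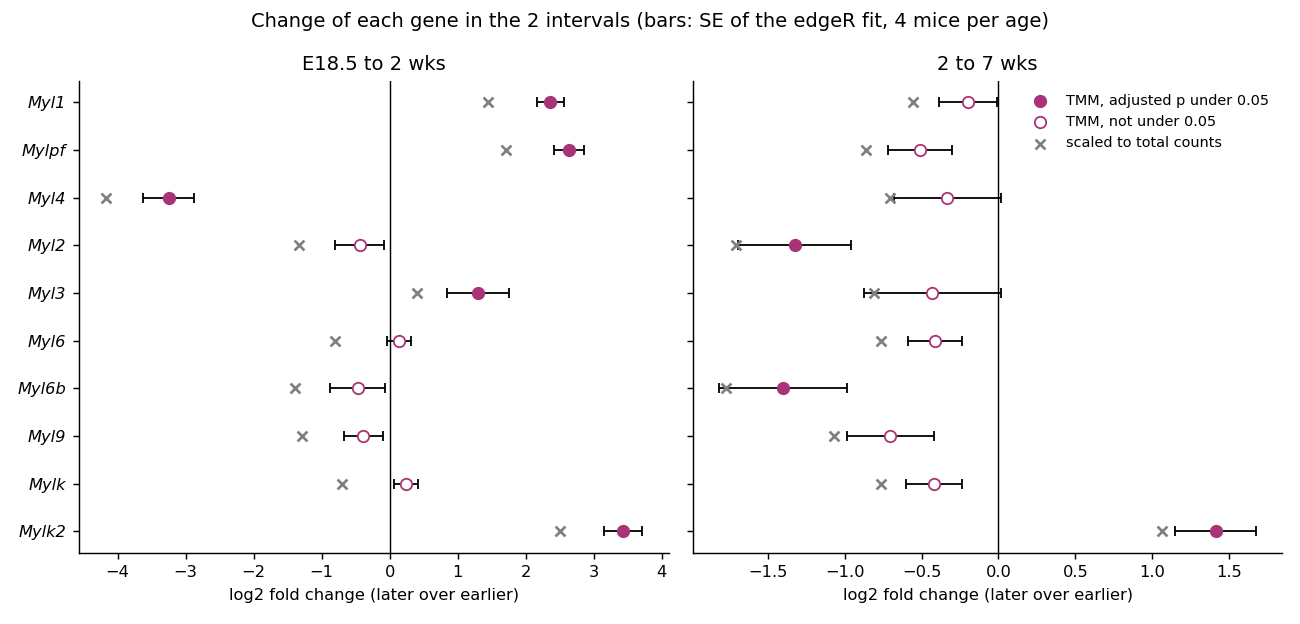
log2 fold change of each gene from E18.5 to 2 wks (left) and from 2 to 7 wks (right), with the SE of the TMM-scaled edgeR fit as bars, filled circles for an adjusted p under 0.05 and grey crosses for scaling to total counts. The crosses lie to the left of the circles for every gene, and those of Myl6 and Mylk lie on the other side of 0 in the first interval.

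The kinases parted after birth. *Mylk2*, the skeletal kinase, stood at 55.6, 96.7, 37.0 and 65.3 CPM at E18.5. It reached 698.5, 603, 731 and 708 CPM at 2 wks and 1544, 1373, 2242 and 2136 CPM at 7 wks. The 3 ages did not overlap, and *Mylk2* was the only one of the 10 genes called higher in both intervals. It rose 10.8-fold to 2 wks (log2 fold change 3.43, SE 0.28, adjusted p = 4.28e-07) and 2.66-fold from 2 to 7 wks (1.41, SE 0.26, adjusted p = 0.00173). Over both intervals the mean rose 28.7-fold (log2 fold change 4.84, SE 0.30, adjusted p = 1.71e-08), and the rises passed without any 1 library and under each scaling.

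*Mylk*, the smooth muscle kinase, stood at 44.1, 54.8, 52.7 and 44.1 CPM at E18.5, at 65.0, 49.1, 59.2 and 57.4 CPM at 2 wks, and at 39.7, 50.7, 28.8 and 53.1 CPM at 7 wks. The ages overlapped throughout. Its log2 fold changes were 0.24 (SE 0.18, adjusted p = 0.261), -0.42 (SE 0.18, adjusted p = 0.100) and -0.18 (SE 0.18, adjusted p = 0.377) to 2 wks, from 2 to 7 wks and over both. With total counts these were -0.69, -0.77 and -1.46, all past the threshold, and the first had changed its sign. Upper-quartile scaling called *Mylk* lower from 2 to 7 wks (-0.53, adjusted p = 0.0410) and over both intervals (-0.43, adjusted p = 0.0420). Removal of the GC trend called it lower only over both (-0.60, adjusted p = 0.00787). The lncRNA *E130310I04Rik* covers 548 bases of *Mylk* exons on the other strand.

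Comparisons within a library do not depend on the factor by which a library is scaled. For 5 pairs of genes the log2 ratio of their counts was taken in each library, and the ages were compared with a two-sided exact permutation test of 4 against 4 mice, whose smallest p is 0.029, adjusted over the 15 tests. The log2 ratio of *Myl4* to *Myl1* was -5.62, -4.18, -4.35 and -5.21 at E18.5 and -10.16, -10.37, -10.26 and -10.65 at 2 wks. At 7 wks it was -11.35, -10.51, -9.89 and -10.61, overlapping with 2 wks. Relative to the fast chain, the embryonic chain thus fell by 5.52 on the log2 scale, or 45.9-fold, by 2 wks (exact p = 0.029, adjusted p = 0.048), and the difference between 2 and 7 wks was -0.23 (exact p = 0.60, adjusted p = 0.60). With the counts of *Mylf-ps* added to *Myl1*, which was tried after the data had been seen, the ratio fell by 5.46 over the same interval.

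The regulatory chains gave a similar course, though by a smaller amount. The log2 ratio of *Myl2* to *Mylpf* was -5.92, -6.58, -5.92 and -5.67 at E18.5, -8.67, -8.83, -10.72 and -8.94 at 2 wks, and -10.96, -9.85, -9.65 and -9.54 at 7 wks. It fell by 3.27 to 2 wks, or 9.63-fold (exact p = 0.029, adjusted p = 0.048), while *Myl2* itself passed the test in that interval only with total counts or after removal of the GC trend, and not with TMM scaling. The second interval gave -0.71 (exact p = 0.34, adjusted p = 0.40), with replicate 3 of 2 wks below 3 of the mice at 7 wks.

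The ratio of *Myl3* to *Myl1* differed less. Its mean log2 value was -6.87 ± 0.72 (SD, n = 4) at E18.5, then -7.80 ± 0.50 at 2 wks and finally -8.12 ± 0.85 at 7 wks. The difference of -0.93 to 2 wks did not pass (exact p = 0.086, adjusted p = 0.13), and that of -1.25 from E18.5 to 7 wks did (exact p = 0.029, adjusted p = 0.048). Relative to *Myl1*, then, *Myl3* was lower in every library of 7 wks than in any of E18.5, although its own TMM-scaled level was not called between those ages.

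For the nonmuscle pair, the longest comparison passed and the shorter ones did not. The mean log2 ratio of *Myl6b* to *Myl6* was -3.38 ± 0.37 (SD, n = 4) at E18.5, then -3.99 ± 0.80 at 2 wks and finally -4.96 ± 0.53 at 7 wks. It fell by 1.58, or 2.98-fold, from E18.5 to 7 wks (exact p = 0.029, adjusted p = 0.048), and the 2 intervals gave -0.60 (exact p = 0.26, adjusted p = 0.32) and -0.97 (exact p = 0.11, adjusted p = 0.16).

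The balance of the kinases shifted in both intervals. The log2 ratio of *Mylk* to *Mylk2* was -0.34, -0.82, 0.51 and -0.57 at E18.5, where the 2 genes had like counts. It was -3.43, -3.62, -3.63 and -3.63 at 2 wks and -5.28, -4.76, -6.28 and -5.33 at 7 wks. No library of one age overlapped another age. The ratio fell by 3.27 to 2 wks and by 1.84 from 2 to 7 wks, and each of these and the difference of -5.11 over both had an exact p of 0.029 and an adjusted p of 0.048.

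**Figure D3:**
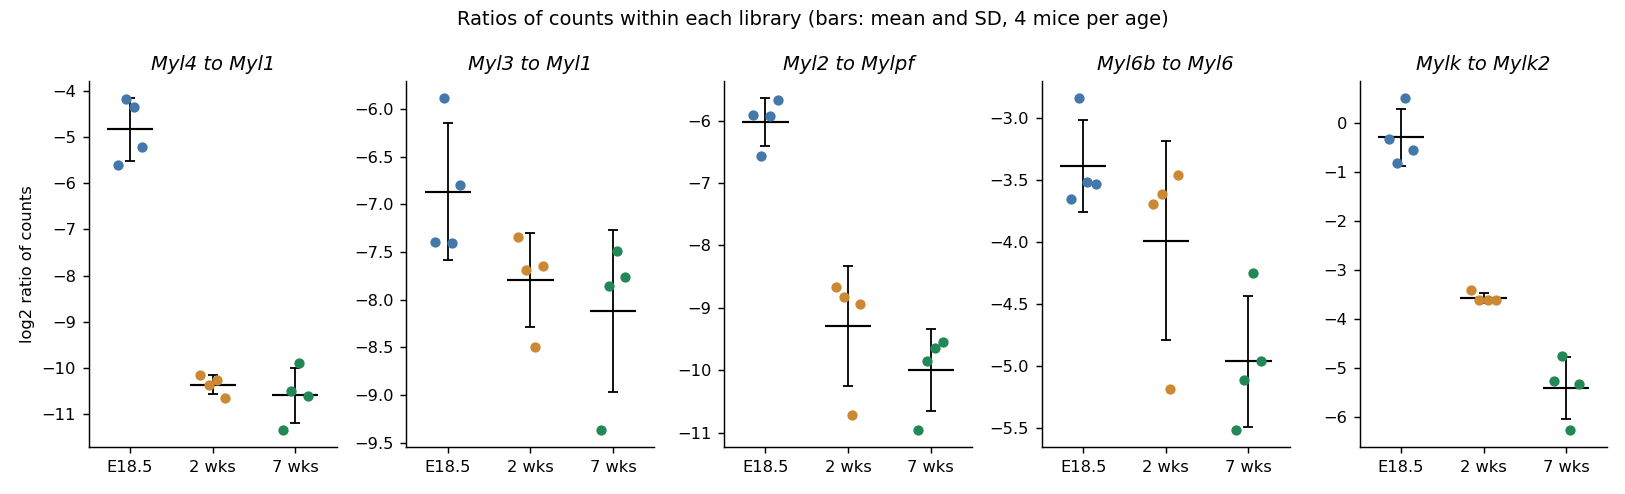
log2 ratio of the counts of 5 pairs of genes in each library, by age, with points for single mice, a line for the mean and bars for the SD (n = 4). The ratio of Mylk to Mylk2 fell in both intervals without overlap, while that of Myl4 to Myl1 fell by 2 wks and then overlapped between 2 and 7 wks.

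For levels between genes, counts were divided by the length of the canonical transcript. Per kilobase, *Mylpf* was the highest of the 10 genes at each age, with 4827 ± 1023 CPM per kb (SD, n = 4) at E18.5, then 30002 ± 2216 at 2 wks and finally 21089 ± 2655 at 7 wks. *Myl1* came next, at 1824 ± 313, 9375 ± 594 and 8172 ± 797 CPM per kb, and no library of it reached the *Mylpf* range of the same age. At E18.5 *Myl6* was the third, at 349 ± 94.1 CPM per kb, followed by *Myl9*, *Myl4* and *Myl2*, of which the neighbours overlapped, then *Myl3*, *Myl6b* and *Mylk2*, also overlapping, and *Mylk* the lowest at 6.25 ± 0.72.

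By 7 wks the order had changed below the first 2 places. *Mylk2*, the ninth of the 10 at E18.5, was the third at 394 ± 92.8 CPM per kb, and it overlapped with *Myl6* at 287 ± 17.6. *Myl9*, *Myl3* and *Myl2* followed at 53.8 ± 6.32, 41.1 ± 19.4 and 20.1 ± 7.06 CPM per kb, each overlapping with the next. *Myl4*, the fifth of the 10 at E18.5, stood at 7.16 ± 3.39, which overlapped with *Mylk* at 5.51 ± 1.42 and *Myl6b* at 5.50 ± 2.52.

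The same length-scaled counts gave the make-up of each class. Of the 5 essential chain genes, *Myl1* made up 79.3 ± 5.35% (SD, n = 4) at E18.5, then 95.3 ± 0.27% at 2 wks and finally 96.0 ± 0.43% at 7 wks. *Myl6* held 15.3 ± 3.66% at E18.5 and 3.90 ± 0.36% at 2 wks, and *Myl4* held 3.69 ± 1.46% and then 0.0915 ± 0.0129%. *Myl3* stayed under 1% on average, at 0.926 ± 0.472%, 0.561 ± 0.170% and 0.481 ± 0.209% at the 3 ages. With the summed length of all exons of a gene in place of the canonical transcript, also tried after the data had been seen, *Myl1* held 88.6 ± 3.19% and *Myl4* 1.42 ± 0.59% at E18.5.

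Of 7 regulatory chain genes, which take in *Myl10*, *Myl12a*, *Myl12b* and *Myl7*, *Mylpf* made up 96.1 ± 0.43% at E18.5, then 99.4 ± 0.14% at 2 wks and finally 99.5 ± 0.09% at 7 wks. *Myl9* held 2.17 ± 0.64% at E18.5 and 0.290 ± 0.054% at 2 wks. *Myl2* held 1.40 ± 0.34% at E18.5, then 0.167 ± 0.077% at 2 wks and finally 0.0960 ± 0.0347% at 7 wks. As shares of a sum, these fall whenever *Mylpf* rises.

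**Figure D4:**
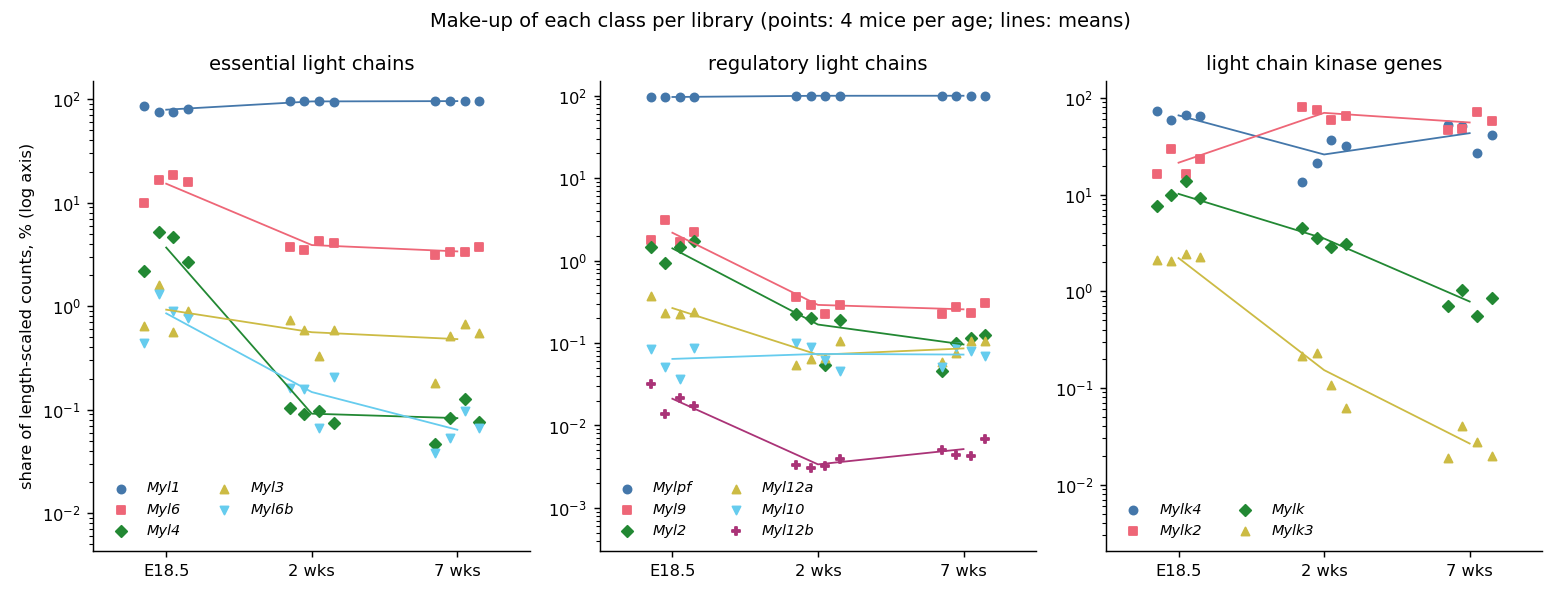
Share of each gene in the length-scaled counts of essential light chains (left), regulatory light chains (middle) and light chain kinase genes (right), in percent on a log axis, with points for single libraries and lines through the means of 4. Myl1 and Mylpf made up most of their classes at each age, and Mylk2 and Mylk4 most of the kinase counts.

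A list of 20 other genes of light chain phosphorylation was read from the same fit. It holds other light chains, kinases, calmodulin, and the myosin phosphatase with its inhibitors and regulators, and 19 of its genes could be tested, all but *Myl7*. Between E18.5 and 2 wks 10 were called higher and 5 lower, and from 2 to 7 wks 4 higher and 2 lower. The median log2 fold changes were 0.71 and -0.07. Of all genes tested, 65.7% were called in the first interval and 27.5% in the second. With total counts the list gave 2 higher and 8 lower, then 2 higher and 5 lower, so its direction depended on the scaling. Total counts called 2550 of all genes higher and 11923 lower in the first interval, then 948 and 5392. With the GC trend removed, 9 were called higher and 5 lower in the first interval, with *Ppp1r12c* and *Ppp1r14b* now among the lower. Of all genes, 5170 were then called higher and 7640 lower. From 2 to 7 wks, 3 genes were called without replicate 1 of 2 wks or without replicate 1 of 7 wks, against 3472 and 4519 of all genes. From E18.5 to 7 wks 8 were called higher and 5 lower, and 3 higher and 11 lower with total counts. Of all genes, 34.3% were called higher and 37.1% lower there, and total counts called 2291 higher and 13297 lower.

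Among its kinases, *Mylk4* took a course of its own. It stood at 333, 257, 202 and 244 CPM at E18.5, at 155, 232, 609 and 468 CPM at 2 wks, and at 2368, 1987, 1120 and 2083 CPM at 7 wks. It was not called in the first interval (log2 fold change 0.50, SE 0.36, adjusted p = 0.242) and rose by 2.37 from 2 to 7 wks (SE 0.38, adjusted p = 0.000734), with no overlap between these ages. With the GC trend removed, *Mylk4* was called higher in both intervals. *Mylk3*, the kinase of the heart, stood at a mean of 3.68 ± 0.38 CPM (SD, n = 4) before birth and fell to 0.816 ± 0.317 CPM by 2 wks (log2 fold change -2.17, SE 0.30, adjusted p = 3.09e-05). Per transcript length, *Mylk4* held 66.2 ± 6.24% of the 4 kinase genes at E18.5 and *Mylk2* 21.4 ± 6.26%. At 2 wks *Mylk2* held 70.3 ± 9.84% and *Mylk4* 26.1 ± 10.6%, and at 7 wks they held 55.9 ± 12.1% and 43.3 ± 11.9%, overlapping. The share of *Mylk* was 10.2 ± 2.61%, 3.52 ± 0.72% and 0.784 ± 0.207% at the 3 ages.

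Among its light chains, *Myl10*, a regulatory chain, had a mean of 2.28 ± 0.80 CPM before birth and rose to 16.3 ± 6.22 CPM by 2 wks (log2 fold change 2.84, SE 0.35, adjusted p = 1.29e-05), also with total counts (1.95, adjusted p = 0.000165). The nonmuscle chain *Myl12a* rose by 0.71 (SE 0.22, adjusted p = 0.0109), and with total counts it stood at -0.23 (adjusted p = 0.296). *Myl12b* gave 0.0033 (SE 0.20, adjusted p = 0.989), and with total counts it was called lower (-0.92, adjusted p = 0.00103).

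Calmodulin is the calcium sensor that activates these kinases. Its gene *Calm3* rose by 1.54 between E18.5 and 2 wks (SE 0.22, adjusted p = 4.56e-05) and by 0.65 from 2 to 7 wks (adjusted p = 0.0413). *Calm2*, which encodes the same protein, gave -0.36 (adjusted p = 0.0865) and -0.05 (adjusted p = 0.853). With total counts the rise of *Calm3* to 2 wks was 0.60 and still passed (adjusted p = 0.0220), while its later change was 0.30 and did not (adjusted p = 0.298). *Calm2* was then called lower at 2 wks (-1.27, adjusted p = 3.25e-05), as it was by upper-quartile scaling and DESeq2.

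Light chain phosphatase joins a catalytic subunit, *Ppp1cb*, to a targeting subunit of the *Ppp1r12* family. *Ppp1cb* was not called to 2 wks (0.08, SE 0.28, adjusted p = 0.822) and rose by 1.15 from 2 to 7 wks (SE 0.28, adjusted p = 0.00858). Its direction to 2 wks turned with the scaling, since total counts called it lower (-0.87, adjusted p = 0.00670) and removal of the GC trend called it higher. The later rise passed with total counts as well (0.83, adjusted p = 0.0231). Of the targeting subunits, *Ppp1r12b*, the striated muscle form, rose by 1.24 to 2 wks (SE 0.21, adjusted p = 0.000186), while *Ppp1r12a* fell by 0.65 (SE 0.17, adjusted p = 0.00466). With total counts *Ppp1r12b* was at 0.32 and did not pass (adjusted p = 0.182), and *Ppp1r12a* fell by 1.57. The phosphatase inhibitors *Ppp1r14a*, *Ppp1r14b* and *Ppp1r14c* were all called higher at 2 wks, and none of them was with total counts.

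Of the regulators that act on the phosphatase, *Rhoa*, *Rock1* and *Rock2* fell between E18.5 and 2 wks, by 0.37, 0.97 and 0.54 (adjusted p = 0.0212, 0.00359 and 0.0324), and did so with total counts as well. With the GC trend removed, *Rock1* was called lower and the other two were not. *Dapk3* rose by 1.62 (adjusted p = 0.000701), which did not pass with total counts (0.68, adjusted p = 0.0678).

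**Figure D5:**
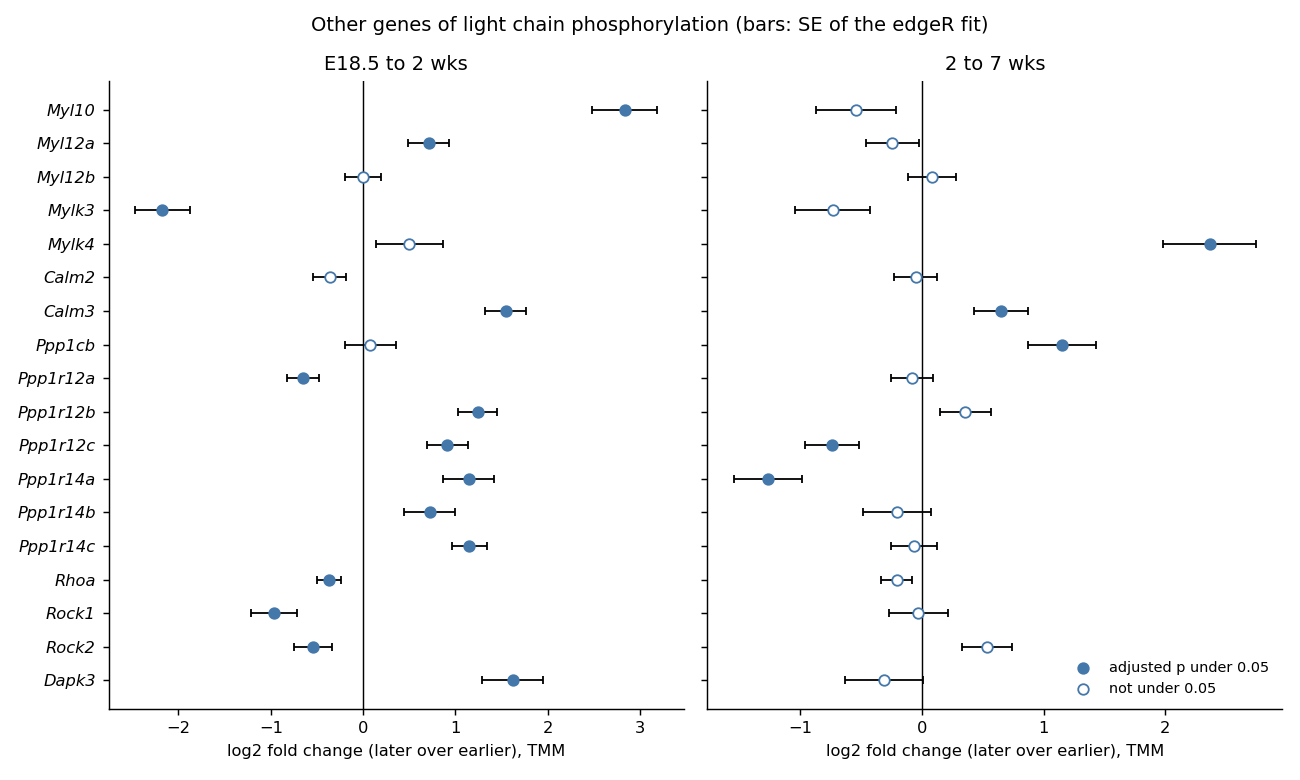
log2 fold change of 18 other genes of light chain phosphorylation from E18.5 to 2 wks (left) and from 2 to 7 wks (right), TMM-scaled, with the SE of the edgeR fit as bars and filled circles for an adjusted p under 0.05. More of these genes were called before 2 wks than after, as over all genes tested (65.7% and 27.5%). Mylk4 was called only after 2 wks in this fit, and also before 2 wks with the GC trend removed.

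Of the heavy chains that the light chains bind, all 9 examined were called between E18.5 and 2 wks. There 5 were higher and 4 lower, with total counts too. From 2 to 7 wks 4 were called, all lower. Of all genes tested, 65.7% and 27.5% were called in these intervals. Smooth muscle myosin *Myh11* was at 32.5 ± 6.01 CPM at E18.5 and 86.1 ± 16.5 CPM at 2 wks (log2 fold change 1.40, adjusted p = 2.68e-05), and 74.1 ± 13.4 CPM at 7 wks. With total counts its rise was 0.46 and still passed (adjusted p = 0.0427). Total counts then called *Myh11* lower from 2 to 7 wks (-0.56, adjusted p = 0.0406). At 2 wks the heavy chain *Myh1* ranged from 4993 to 24693 CPM among mice in which *Myl1* ranged from 10216 to 11770 CPM. *Myl1* and *Mylpf* were the lowest in replicate 4, which was the highest for *Myh1* and the lowest for *Myh4*. The heavy chain *Myh4* stood there at 27826 CPM, against 37464 to 45976 CPM in the other mice of 2 wks.

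The genes with the most similar pattern were sought among 4083 genes whose log2 CPM averaged 5 or more, by Pearson correlation of log2 CPM over the 12 libraries. *Mylk2* was closest to *Rcsd1*, *Dnajb5* and *Myoz1* (r = 0.996, 0.995 and 0.995), and *Mylpf* to *Ppp1r27*, *Hhatl* and *Aimp2* (r = 0.988, 0.987 and 0.986). *Myl4* was closest to *Prkaca*, *Ssrp1* and *Nono* (r = 0.967, 0.965 and 0.961). The values were lower for *Myl9*, with *Cdc42se1*, *Ccnd3* and *Arhgef2* at 0.880, 0.879 and 0.868, and for *Myl2*, with *Ccnl2*, *H19* and *Rpl36a* at 0.876, 0.875 and 0.874. All points share the libraries and their 3 ages, so any genes that differ between ages in the same order score high.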

How the data were processed

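RNA was taken with TRI Reagent from TA muscle of 12 WT 129SvPas mice, 4 each at E18.5, 2 wks and 7 wks, and libraries from the TruSeq Stranded mRNA kit were sequenced as paired-end reads. The authors deposited whole-number read counts per gene, made with HTSeq 0.6.1p1 from STAR 2.5.3a alignments. The submitters' processing notes name mm10 and the study's methods name GRCm39, and the strand setting of the counting is not given in the sources used here. Gene names, lengths and GC content came from GENCODE vM39 (51477 of 55450 identifiers matched, and the 3973 others carried 0.0394% of the counts), and coordinates and promoters from RefSeq GRCm38.p6, the assembly that mm10 holds.

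Library totals ran from 63018968 to 123449246 counts. One edgeR 4.0.16 fit (R 4.3.3) of all libraries with age as the only term used TMM scaling, the default filter on low counts (36174 genes removed) and quasi-likelihood tests with Benjamini-Hochberg adjustment over 19276 genes. It was tested on simulated counts. Ratios of genes within a library, with 0.5 added to each count, were compared with exact permutation tests (scipy 1.17.1). Pseudogene stretches of at least 100 bases and 95% identity were found with BLAST 2.17.0.

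The alternatives were total counts, upper-quartile scaling, TMM without the 20 most abundant and 37 mitochondrially encoded genes, a replicate block, DESeq2 1.42.0, fits with no filter or a floor of 10 counts per library, the 8 libraries compared alone, removal of each library's trend over GC content, and each library left out. Adding *Mylf-ps* to *Myl1* and dividing by the summed exon length were chosen after seeing the data. All 10 genes are described. Other genes are named from lists of light chain phosphorylation, heavy chains and markers of smooth muscle, cardiac muscle, slow fibre, skeletal muscle, fibroblast and endothelium, or, for *Myl4*, *Mylpf*, *Myl2*, *Mylk2* and *Myl9*, as the 3 genes of most similar pattern. One gene counted in the list of light chain phosphorylation is not reported here. The genes and the lists were chosen with earlier results of these data known.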

Additional observations from a re-analysis of the deposited data

Results flagged for a closer look

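In 6 of 45 sets of 4 libraries, 1 library stood far from the others by Dixon's criterion at the 95% level, and chance gives about 1 in 20, or 2.25 sets. At E18.5, *Myl2* was at 69.9 CPM in replicate 4 against 50.8 to 53.8 CPM in the others. At 2 wks, *Mylpf* was at 20470 CPM in replicate 4 against 23578 to 24211 CPM. The log2 ratio of *Myl2* to *Mylpf* was -10.72 in replicate 3 of 2 wks against -8.94 to -8.67, and that of *Myl6b* to *Myl6* was -5.18 in the same library against -3.69 to -3.46. The latter ratio was also -2.83 in replicate 2 of E18.5 against -3.65 to -3.52. The log2 ratio of *Mylk* to *Mylk2* was -3.43 in replicate 1 of 2 wks against -3.63 to -3.62, a small difference beside those between ages.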

How the results depend on the processing

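With total counts, 9 of the 10 genes were called from E18.5 to 2 wks and 8 from 2 to 7 wks, against 5 and 3. Of all 19276 genes, total counts called 14473 and 6340, against 12668 and 5296. With the GC trend removed, 8 were called in the first interval, and 12810 of all genes. From 2 to 7 wks, upper-quartile scaling called 7 and the 8 libraries alone 6. Of all genes tested, these called 5188 of 19276 and 6171 of 16913. Leaving out each library gave 1 to 6 genes in that interval, 3 to 7 genes of light chain phosphorylation and 3472 to 6145 of all genes, the lowest without replicate 1 of 2 wks. The sign turned with total counts for *Myl3* from E18.5 to 7 wks (-0.41), and for *Myl6* (-0.80) and *Mylk* (-0.69) from E18.5 to 2 wks. In that interval *Myl6* was also at -0.00455 with upper-quartile scaling, -0.36 with the GC trend removed and between -0.018 and 0.30 with 1 library left out, the lowest without replicate 1 of E18.5, *Mylk* at -0.29 with the GC trend removed, and *Myl9* between -0.55 and 0.045 with 1 library left out, the highest without replicate 2 of E18.5. With the GC trend removed, the log2 ratio of *Myl4* to *Myl1* changed by 0.047 from 2 to 7 wks, and the ratios of *Myl3* to *Myl1* and *Myl6b* to *Myl6* changed by -1.79 and -1.47 from E18.5 to 2 wks, both now passing (exact permutation test, adjusted p = 0.039). The causes were not tested.

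Same-numbered libraries of different ages correlated at -0.142 to 0.284 in their deviations from the age means, and not every library correlated best with its own number, so the numbers were not taken to pair the mice. The replicate block gave 12470, 5149 and 13611 calls over all genes in the 3 comparisons, against 12668, 5296 and 13755, and 5, 4 and 7 of the 10 genes, with *Myl9* added from 2 to 7 wks (-0.70, adjusted p = 0.0499, edgeR). DESeq2 called 5, 4 and 7, and 13025, 6098 and 14003 of all genes. Adding *Mylf-ps* to *Myl1* changed no call of a ratio, and summed exon length in place of the canonical transcript put *Myl1* at 88.6, 97.5 and 97.9% and *Myl6* at 8.47, 1.97 and 1.70% of the essential chains.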
